A study of Mus musculus with 32 samples.

Results

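The type I interferon-stimulated genes described here are 35 genes that cells switch on when they sense an interferon, taken as a list of symbols and matched through the Ensembl identifiers of the count table. All 35 were among the 57186 genes listed, and 34 of them had enough counts to be tested. Oasl1 was not tested, with 80 counts over all 32 libraries. The cells were 3T3-L1, a mouse preadipocyte line, differentiated into adipocytes and exposed for 24 h to 8 treatments. The groups were SCO, CAP7, ROSI or DMSO vehicle together with TNF-alpha (TNF, an inflammatory cytokine), and SCO, CAP7, ROSI or DMSO vehicle without it, with 4 libraries each. SCO is not spelled out in the labels, while the title of the series names an extract of Artemisia scoparia. ROSI is rosiglitazone, an agonist of the fat cell nuclear receptor PPARγ that the submitters included as a comparison for PPARγ target genes. The sources used here say neither what CAP7 stands for nor at which doses the treatments were given. All cells came from 1 line, and the labels call the 4 libraries of a group biological replicates without saying whether they came from separate cultures or days. The p-values therefore measure the spread between these libraries, which may be technical in part.

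Libraries were made with a kit that reads the 3' ends of mRNA, and library totals lay between 11.3 and 37.7 M counts (1 M is 1e6 counts), the median being 20.9 M. Levels are given as CPM, counts per 1e6 counts after TMM scaling, and SDs are over 4 libraries. A change is a log2 ratio from edgeR with its standard error (SE), and a gene rose or fell where its Benjamini-Hochberg adjusted p over 14428 genes was under 0.05. Shares of all genes called come from that edgeR fit, and were not computed for other fits or with libraries left out. CPM of different genes are not compared with each other. In whole cultures, fewer cells with a transcript and less of it per cell cannot be told apart.

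Type I interferons bind a receptor made of IFNAR1 and IFNAR2, whose kinases JAK1 and TYK2 phosphorylate STAT proteins, STAT2 among them. With IRF9 these form a complex that binds the interferon-stimulated response element (ISRE), a short motif near the start of many target genes. The products bind or degrade viral RNA, modify proteins or starve viruses of nucleotides, and some of them, such as STAT2, IRF9 and IRF7, feed back on the pathway. In adipose tissue, genes of this kind are among those that rise in inflammation.

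Promoters of 5 genes are shown because they carry the ISRE core and belong to genes that rose with TNF and fell with SCO in its presence: Ifit1, Ifit3 and Ifit3b of 1 family, the modifier Isg15 and Rsad2, the gene with the largest change with TNF. Each is the stretch of 250 bases before the annotated start, 5′ to 3′ on the gene's strand, from RefSeq on GRCm38.p6. Capitals mark the ISRE core, searched as GAAANNGAAA on both strands, so that a core on the opposite strand reads as TTTCNNTTTC.
Ifit1: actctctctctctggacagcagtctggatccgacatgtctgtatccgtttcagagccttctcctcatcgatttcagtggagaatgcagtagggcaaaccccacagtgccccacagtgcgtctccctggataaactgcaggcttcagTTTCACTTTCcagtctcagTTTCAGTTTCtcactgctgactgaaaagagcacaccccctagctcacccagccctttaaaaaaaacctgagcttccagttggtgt
Ifit3: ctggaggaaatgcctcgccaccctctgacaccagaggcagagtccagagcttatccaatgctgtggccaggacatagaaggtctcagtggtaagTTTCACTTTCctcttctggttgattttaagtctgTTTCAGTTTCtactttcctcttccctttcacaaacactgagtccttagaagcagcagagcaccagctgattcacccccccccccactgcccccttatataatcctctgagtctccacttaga
Ifit3b: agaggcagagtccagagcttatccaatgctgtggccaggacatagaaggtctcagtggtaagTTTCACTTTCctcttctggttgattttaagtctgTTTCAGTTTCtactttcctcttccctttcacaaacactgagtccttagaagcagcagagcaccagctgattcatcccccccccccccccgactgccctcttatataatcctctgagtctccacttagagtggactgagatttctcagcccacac
Isg15: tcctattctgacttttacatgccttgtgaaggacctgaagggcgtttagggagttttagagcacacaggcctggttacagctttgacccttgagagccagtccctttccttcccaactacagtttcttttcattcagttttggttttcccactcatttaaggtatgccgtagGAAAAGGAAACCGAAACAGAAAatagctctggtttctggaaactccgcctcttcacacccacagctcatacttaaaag
Rsad2: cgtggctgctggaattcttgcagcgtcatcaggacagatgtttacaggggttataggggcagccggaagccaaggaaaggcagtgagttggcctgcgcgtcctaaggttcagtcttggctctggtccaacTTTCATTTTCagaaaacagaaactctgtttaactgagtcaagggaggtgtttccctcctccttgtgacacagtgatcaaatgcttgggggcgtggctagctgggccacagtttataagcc
They lie at chr19:34640639-34640888 (Ifit1, plus strand), chr19:34583279-34583528 (Ifit3, plus strand), chr19:34607707-34607956 (Ifit3b, plus strand), chr4:156200819-156201068 (Isg15, minus strand) and chr12:26456453-26456702 (Rsad2, minus strand). Ifit1, Ifit3 and Ifit3b held 2 cores each, Isg15 held 3 that overlap, and Rsad2 held 1.

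Of the 35 genes, 25 had a promoter in the RefSeq table, and 10 of these 25 (40%) held the core, against 936 of 27025 genes in all (3.46%). The 10 were Ifit1, Ifit3, Ifit3b, Isg15, Rsad2, Oas1a, Oas3, Stat2, Bst2 and Trim30a. A match describes letters in this window and is not shown to be a bound site. Promoters of Ifit3 and Ifit3b were identical at 217 of 218 aligned bases (99.5%), and those of Ifit3 and Ifit1 at 151 of 205 (73.7%). Gaps and overhanging ends are left out of these counts, and Ifit3 and Ifit3b also differ in the length of a run of C. The sources used here do not say how reads matching both Ifit3 and Ifit3b were counted, so the split between this pair is uncertain. The median log2 change with TNF in vehicle was 2.87 over the 10 genes with a core and 2.05 over the 14 tested genes with a promoter but no core. The NF-κB consensus, searched in the same windows on both strands, was in 5 of the 25 (20%), against 2225 of 27025 genes in all (8.23%). The median change was 3.02 over the 4 tested genes with it and 2.54 over the 20 without it. The 4 span 1.18 to 5.33, and the highest, Oas3, has too few counts for a fold with meaning, as given below. The order of these 2 medians is therefore not read as a result. Oas3 is also among the 10 genes with the ISRE core. Oas3 and Bst2 held both motifs.

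The cells carried the marks of adipocytes, with all 12 adipocyte markers counted, and leukocyte markers were low. The 12 leukocyte markers summed to between 39.4 and 50.8 CPM with TNF in vehicle, against 11.1 to 14.8 CPM without TNF. Cd14 and Cd68 made up most of that sum and rose with TNF, Adgre1, Tyrobp and Siglech were at 0 in all 32 libraries, and Ptprc, the pan-leukocyte marker, had 7 counts in all. The adipocyte markers fell with TNF in vehicle in 12 of 12 cases, against 27.5% of all genes. Their sum was 19023 to 22297 CPM with TNF in vehicle, against 57000 to 60574 CPM without it. With SCO and TNF that sum was 39474 to 48590 CPM. The 7 preadipocyte and fibroblast markers summed to 1063 to 1330 CPM in SCO, 1077 to 1495 CPM in CAP7 and 1212 to 1406 CPM in ROSI with TNF, against 1445 to 1572 CPM in vehicle with TNF. Without TNF their sum was 1377 to 1527 CPM in SCO, against 1931 to 2364 CPM in vehicle. Of these 7 markers 6 fell with SCO in the presence of TNF, against 8.09% of all genes, and 6 in its absence, against 8.99%, the same direction as the falls of interferon-stimulated genes with SCO given below. The part of these markers in the results below was not tested.

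The genes were spread widely between libraries of the same group, and moved together in doing so. The plot of mean levels gives, for each library, the mean log2 CPM over the 34 tested genes. With TNF it was 4.92, 3.76, 4.53 and 4.27 in the 4 SCO libraries, 4.75, 4.72, 4.87 and 5.29 in CAP7, and 5.47, 5.24, 4.59 and 5.35 in ROSI, against 5.22, 5.13, 5.29 and 5.81 in vehicle. All 4 libraries of SCO with TNF lay below all 4 of vehicle with TNF, whereas CAP7 and ROSI overlapped vehicle.

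**Figure D1:**
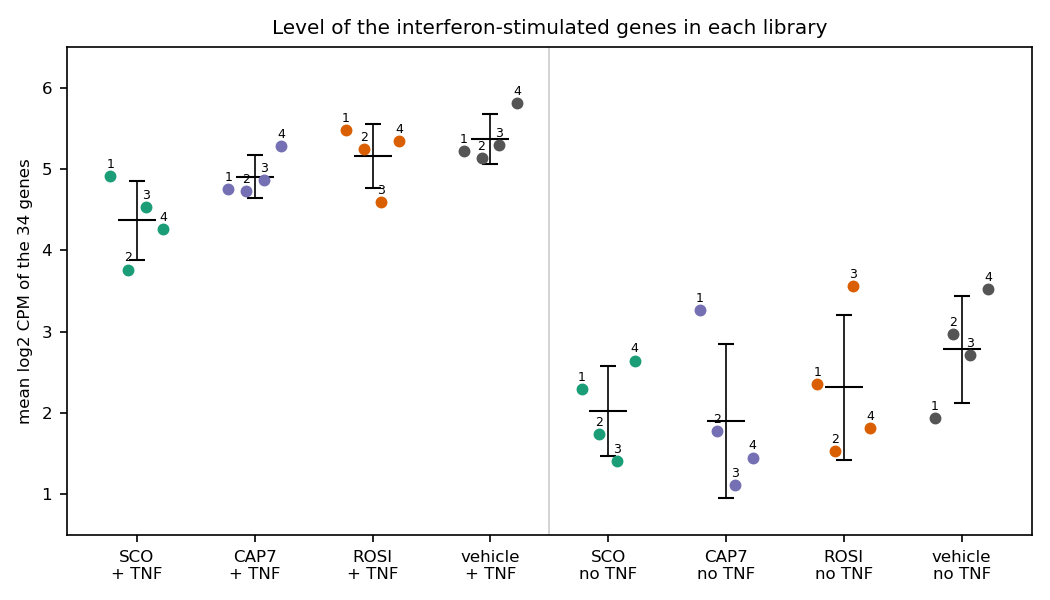
Mean log2 CPM (vertical axis) over the 34 tested interferon-stimulated genes in each library, by group (horizontal axis), with the replicate number beside each point and the group mean and SD as a black bar. Every library with TNF lies above every library without it, and SCO with TNF lies below vehicle with TNF.

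Without TNF the same mean was 2.29, 1.74, 1.41 and 2.65 in SCO, 3.26, 1.78, 1.12 and 1.45 in CAP7, and 2.35, 1.54, 3.56 and 1.82 in ROSI, against 1.94, 2.97, 2.71 and 3.53 in vehicle. These 4 groups overlapped each other. The highest CAP7 library exceeded the lowest by 4.42-fold in this mean, the highest ROSI library by 4.05-fold, the highest vehicle library by 3.00-fold and the highest SCO library by 2.36-fold. With TNF these ratios were 2.22 in SCO, 1.48 in CAP7, 1.84 in ROSI and 1.61 in vehicle.

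The biological coefficient of variation, which edgeR estimates per gene from all groups, had a median of 40.5% over the 34 genes, against 11.7% over all genes tested. It lay above edgeR's trend for genes of that level in all 34, against 41.7% of all genes. Rsad2 had the highest of the 34 at 71.4% and Samhd1 the lowest at 9.96%. The SD within groups on the log2 scale had a median of 0.45 with TNF and 0.91 without TNF over these genes, while over all genes tested it was 0.19 in both states.

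The map of deviations shows that the spread was shared between the genes. The libraries named here were picked as having the highest or lowest mean level of these same 34 genes in their group. That choice favours the counts, so they are not like for like with the shares of all genes. In vehicle with TNF, library 4 was the highest for 33 of 34 genes, against 29.9% of all genes. Library 1 of SCO with TNF was the highest for 30 and library 2 the lowest for 29, against 22.2% and 23.7% of all genes. For CAP7 with TNF library 4 was the highest for 31, against 25.7%, and for ROSI with TNF library 3 was the lowest for 33, against 23.3%. Without TNF, library 1 of CAP7 was the highest for 32, library 3 of ROSI for 31 and library 4 of vehicle for 27. The shares of all genes were 28.2%, 29.4% and 27.3%.

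**Figure D2:**
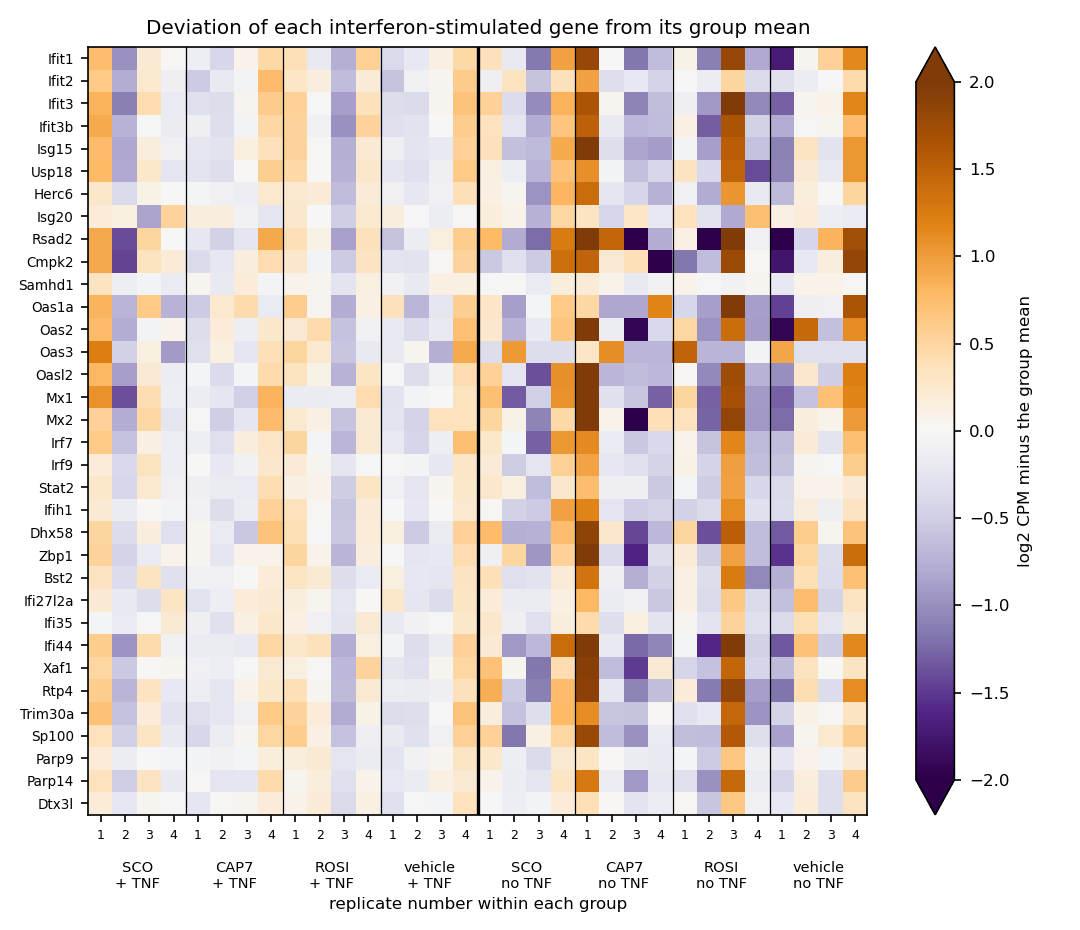
Log2 CPM minus the mean of its group (colour, cut at 2 in either direction) for the 34 tested interferon-stimulated genes (rows) in the 32 libraries (columns, grouped by treatment). Columns of 1 colour, such as library 1 of CAP7 and library 3 of ROSI without TNF, show libraries in which nearly all of the genes lie above or below their group.

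Genes linked to interferon gamma and antigen presentation followed the same libraries, 25 of 27 being highest in library 4 of vehicle with TNF and 24 of 27 lowest in library 3 of ROSI with TNF. Of 16 genes of the NF-κB and TNF response, 9 were at the extreme in each of these libraries. Cell type markers also followed some of them. Of 12 adipocyte markers 9 were highest in library 4 of vehicle with TNF, against 29.9% of all genes, while 2 of 12 were lowest in library 3 of ROSI with TNF, against 23.3%. Of 7 preadipocyte and fibroblast markers 6 were highest in library 1 of SCO with TNF, against 22.2%, and 5 in library 1 of CAP7 without TNF, against 28.2%. The SD of the mean level of those 16 genes was 0.06 to 0.20 in the 8 groups, against 0.26 to 0.95 for the interferon-stimulated genes. Of the libraries that stood apart, library 4 of vehicle without TNF had the lowest total of its group (11.3 M) and library 3 of ROSI with TNF the highest (37.7 M), whereas library 1 of CAP7 without TNF (21.9 M) and library 4 of vehicle with TNF (24.1 M) lay between the other libraries of their groups. The parts of depth and of these markers were not tested. Results that rest on the libraries standing apart are given below with and without them.

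In adipocytes given vehicle, TNF raised nearly the whole list. Of the 34 tested genes 33 rose, against 26.7% of all genes tested, and 1, Ifi27l2a, fell, against 27.5%. The 33 came from every class of the list, and the median change over the 34 was 2.45, against -0.01 over all genes tested. In 32 of the 34 all libraries with TNF lay above all libraries without it, against 25.4% of all genes. The exceptions were Ifi27l2a and Oas1a. Oas3 is included in these counts, although it was kept for testing through the groups with TNF, as given below. Oas1a and Mx1 were also near the floor without TNF, averaging 0.0927 and 0.196 CPM in SCO, so the filter may have favoured their rises as well.

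The Ifit genes encode proteins that bind foreign RNA, and all 4 rose. Ifit1 was at 178, 202, 251 and 319 CPM with TNF, against 5.77, 19.8, 28.2 and 42.7 CPM without it. The groups lay far apart, although the libraries without TNF differed by 7.39-fold among themselves, and the change was 3.35 (SE 0.477, edgeR adjusted p = 4.83e-07). Ifit2 was at 26.2, 37.2, 40.7 and 59.9 CPM with TNF, against 2.56, 2.91, 3.17 and 4.37 CPM without, a closer set of libraries, and rose by 3.69 (SE 0.313). Ifit3 was at 210, 205, 272 and 424 CPM with TNF, against 8.24, 21.0, 21.7 and 45.6 CPM without, and rose by 3.58 (SE 0.497). Library 4 was the highest of each of these groups for all 3 genes. Ifit3b, the near copy of Ifit3, rose by 2.72 (SE 0.405).

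Isg15 encodes a ubiquitin-like protein that is joined to other proteins, Herc6 its mouse ligase and Usp18 the protease that removes it. Herc6 was at 90.0, 82.1, 89.7 and 124 CPM with TNF, against 6.64, 11.8, 10.5 and 15.1 CPM without. There was no overlap, and the change was 3.17 (SE 0.300, edgeR adjusted p = 2.36e-11). Isg15 rose by 3.02 (SE 0.473) and Usp18 by 1.91 (SE 0.403).

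Rsad2, or viperin, makes a nucleotide that stops viral RNA chains, and Cmpk2 beside it supplies the precursor. Rsad2 was at 94.1, 129, 156 and 212 CPM with TNF, against 0.434, 1.62, 3.96 and 7.56 CPM without. Its change of 5.63 (SE 0.613, edgeR adjusted p = 1.04e-10) was the largest of the list, and its libraries without TNF were also among the most spread. Cmpk2 was at 20.4, 20.2, 24.8 and 35.2 CPM with TNF, against 0.174, 0.712, 0.923 and 3.19 CPM without, and rose by 4.54 (SE 0.552). Library 4 was again the highest and library 1 without TNF the lowest for both genes.

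Samhd1 encodes the enzyme that breaks down deoxynucleotides, and Isg20 a nuclease that degrades RNA. Samhd1 was at 96.1, 89.0, 109 and 109 CPM with TNF, against 31.6, 38.4, 38.5 and 36.9 CPM without. The libraries were close together within each group, and the change of 1.48 had the smallest SE of the list (0.102, edgeR adjusted p = 3.09e-15). Isg20 was at 34.5, 30.7, 28.4 and 31.7 CPM with TNF, against 14.8, 15.5, 12.6 and 12.2 CPM without, and rose by 1.18 (SE 0.233). It was the 1 gene of the list that was not highest in library 4 of vehicle with TNF.

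The oligoadenylate synthetases make a messenger that activates RNase L, and the Mx proteins are GTPases that trap viruses. Oas3 had 39, 37, 30 and 87 counts in the libraries with TNF, against 3, 0, 0 and 0 counts without, too few for a fold with meaning. The filter on low counts kept Oas3 through the groups with TNF, where it is high. Its place among the genes that rose was thus favoured by the filter and adds no support. Oasl2 rose by 3.05 (SE 0.469), Oas2 by 2.43 (SE 0.564) and Oas1a by 2.04 (SE 0.735), the last with overlapping libraries. Oas1a was near the floor without TNF, so the filter may have favoured its rise as well. Mx1 was at 5.16, 6.06, 6.24 and 7.96 CPM with TNF, against 0.0434, 0.129, 0.462 and 0.672 CPM without. The level without TNF rested on few counts, and the change was 4.45 (SE 0.743), while Mx2 rose by 2.94 (SE 0.498).

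The transcription factors of the pathway rose by less than the median of the list. Irf9 was at 59.3, 58.0, 52.1 and 73.8 CPM with TNF, against 21.2, 32.6, 31.3 and 47.9 CPM without, and its change of 0.89 (SE 0.260, edgeR adjusted p = 0.00414) was the smallest rise. Irf7, which drives interferon genes, was at 28.1, 23.6, 29.2 and 52.9 CPM with TNF, against 8.63, 15.6, 11.3 and 22.6 CPM without, and rose by 1.24 (SE 0.358). For both genes the groups were separated by little, the lowest library with TNF lying just above the highest without it. Stat2 was at 55.2, 49.8, 60.8 and 71.0 CPM with TNF, against 14.3, 19.8, 19.7 and 21.7 CPM without, and rose by 1.66 (SE 0.236).

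Zbp1 senses nucleic acids in an unusual left-handed form and can trigger cell death. It was at 30.5, 25.9, 26.7 and 41.5 CPM with TNF, against 0.26, 1.36, 0.725 and 2.60 CPM without. The groups lay far apart, with a change of 4.83 (SE 0.469, edgeR adjusted p = 5.15e-13). The RNA sensors Ifih1 (MDA5) and Dhx58 (LGP2) rose by 1.94 (SE 0.300) and 1.63 (SE 0.441).

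Parp14 and Parp9 are ADP-ribosyl transferase family members, and Dtx3l is the ubiquitin ligase that partners Parp9. Parp14 was at 97.3, 101, 120 and 130 CPM with TNF, against 8.55, 12.9, 9.17 and 17.5 CPM without. There was no overlap, and it rose by 3.26 (SE 0.295), while Dtx3l rose by 1.71 (SE 0.166) and Parp9 by 1.54 (SE 0.156). Of the 8 other effectors 7 rose, among them Ifi44 by 2.94, Sp100, a nuclear body protein, by 2.61 and Bst2, the tetherin that holds budding virus at the membrane, by 2.34. Ifi35 was at 29.8, 32.1, 33.0 and 40.5 CPM with TNF, against 9.98, 17.3, 11.1 and 15.2 CPM without, and rose by 1.35 (SE 0.173).

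Ifi27l2a, a mouse relative of the interferon-induced mitochondrial protein IFI27, went the other way. It was at 14.2, 9.99, 9.22 and 14.5 CPM with TNF, against 26.1, 66.7, 29.3 and 49.9 CPM without. All libraries with TNF lay below those without, a change of -1.83 (SE 0.250, edgeR adjusted p = 8.58e-08).

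**Figure D3:**
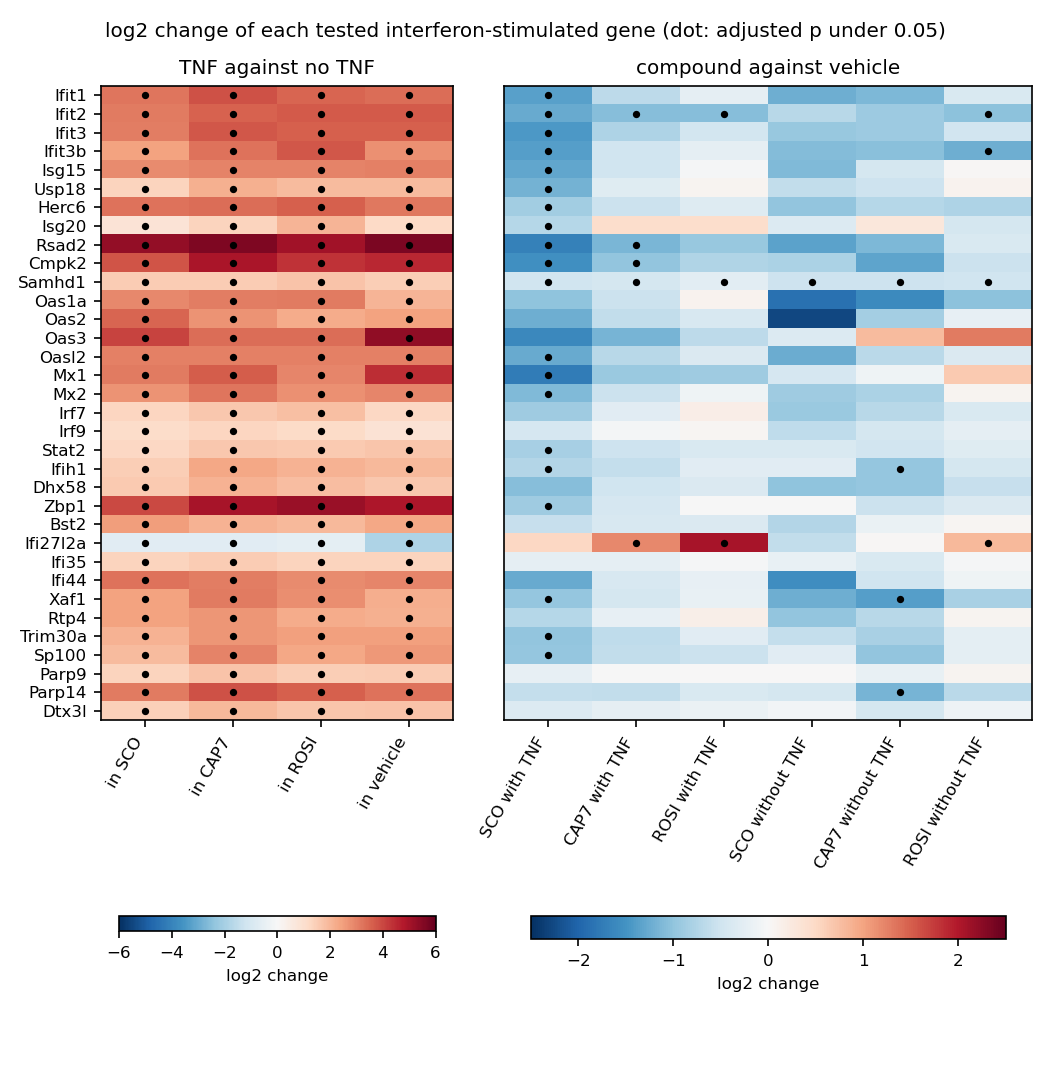
Log2 change (colour, with separate scales for the left and right panels) of the 34 tested interferon-stimulated genes (rows) for TNF against no TNF within each treatment (left) and for each compound against vehicle with and without TNF (right), with a dot where the edgeR adjusted p was under 0.05. TNF raised 33 of the 34 in each treatment, and SCO with TNF is the compound column with the most dots (20). The colours of Oas3 rest on 10 counts or fewer in each group without TNF.

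With each compound present TNF raised the same number of genes. In SCO it was 33 of 34, with a median change of 2.47, against 25% of all genes. In CAP7 33 rose (median 2.97), against 23.4%, and in ROSI 33 (median 2.59), against 24.9%. Ifi27l2a fell in each, against 23.3%, 22.4% and 22.5% of all genes. It changed by -0.70 (SE 0.250) in SCO, -0.66 (SE 0.236) in CAP7 and -0.59 (SE 0.230) in ROSI, and each of these 3 calls was lost when single libraries of its groups were left out (3 of the 8 in SCO, 3 of 8 in CAP7 and 5 of 8 in ROSI).

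The interaction term asks whether a compound altered the change with TNF. It called Ifi27l2a for CAP7 (1.17, SE 0.344, edgeR adjusted p = 0.0158) and for ROSI (1.25, SE 0.340, edgeR adjusted p = 0.00913), and no other gene of the list. The share of all genes called higher was 10.3% and 10.1%. For SCO the edgeR interaction called 0 of the 34, against 4.64% of all genes, with 1 at an unadjusted p under 0.05 and 0 by DESeq2 and by limma-voom. For Rsad2 the interaction with SCO was -0.35 with a 95% interval of -2.49 to 1.79, and for Ifit1 -0.15 (-1.60 to 1.30), so large differences in either direction remain within the error. For Ifi27l2a the interaction with SCO was 1.13 (SE 0.354, edgeR adjusted p = 0.0566). Both calls for Ifi27l2a were lost without library 2 of vehicle without TNF, its highest library in that group, and that for CAP7 also with robust moderation. Other settings called more genes: with library 1 of CAP7 and library 3 of ROSI without TNF left out 7 were higher for CAP7 and 5 for ROSI, and with no filter on low counts 6 were higher for CAP7, and 5 higher and 2 lower for ROSI.

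Without TNF, the compounds were compared with vehicle to ask what they did to these genes at rest. The libraries were widely spread, and the number of genes that passed the test moved with the fit and with single libraries. SCO lowered 1 gene, Samhd1, against 8.99% of all genes, and the median over the 34 was -0.71. That count was 7 without library 1 of vehicle, 3 without library 3 of vehicle and 4 without library 4 of SCO, 16 in a fit of only the groups compared and 24 with no filter on low counts. CAP7 lowered 4 genes, Samhd1, Parp14, Xaf1 and Ifih1, against 15% of all genes, with a median of -0.69. The count was 25 without library 1 of CAP7, 9 without library 1 of vehicle, and 2 without library 2 of vehicle or library 2, 3 or 4 of CAP7, 8 in a fit of only the groups compared and 25 with no filter. ROSI lowered 3 genes, Samhd1, Ifit2 and Ifit3b, against 19%, and raised Ifi27l2a, against 18.4%, with a median of -0.33. The 3 became 13 without library 3 of ROSI and 13 with no filter, and 1 without library 2, 3 or 4 of vehicle or library 1 or 2 of ROSI.

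Samhd1, which differed least between libraries, was the gene lowered by all 3 compounds. It was at 24.7, 25.5, 22.3 and 28.1 CPM in SCO, 28.8, 26.4, 22.2 and 24.0 CPM in CAP7 and 26.6, 25.0, 24.2 and 26.1 CPM in ROSI, against 31.6, 38.4, 38.5 and 36.9 CPM in vehicle. Every library of each compound lay below every library of vehicle. The changes were -0.52 (SE 0.109, edgeR adjusted p = 0.000411) with SCO, -0.51 (SE 0.106, edgeR adjusted p = 0.000235) with CAP7 and -0.51 (SE 0.107, edgeR adjusted p = 0.000207) with ROSI, all against the same 4 vehicle libraries.

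The other falls without TNF were from groups that overlapped, with the exception of Ifit2 in ROSI. Parp14 was at 10.8, 4.01, 2.25 and 3.8 CPM in CAP7, against 8.55, 12.9, 9.17 and 17.5 CPM in vehicle, and changed by -1.16 (SE 0.348). Library 1 of CAP7 lay among the vehicle libraries, and the call was kept under every alternative. Xaf1, which promotes apoptosis, was at 3.52, 0.513, 0.244 and 1.00 CPM in CAP7, against 2.17, 4.4, 3.49 and 4.37 CPM in vehicle (-1.38, SE 0.463). Ifih1 was at 5.42, 1.96, 1.64 and 1.69 CPM in CAP7, against 4.08, 5.83, 4.88 and 6.55 CPM in vehicle (-0.97, SE 0.345). In both genes 3 CAP7 libraries lay below all vehicle libraries and library 1 did not.

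With ROSI, Ifit2 was at 1.5, 1.36, 2.19 and 1.15 CPM, against 2.56, 2.91, 3.17 and 4.37 CPM in vehicle, a change of -1.03 (SE 0.404) that was lost with 6 of the 8 libraries left out in turn. Ifit3b was at 7.50, 2.73, 21.9 and 4.98 CPM in ROSI, against 12, 20.3, 21.6 and 34.6 CPM in vehicle (-1.22, SE 0.460), with library 3 of ROSI above 3 of the 4 vehicle libraries, and was lost with 6 of 8 as well. Ifi27l2a was at 78.4, 55.0, 112 and 56.0 CPM in ROSI, against 26.1, 66.7, 29.3 and 49.9 CPM in vehicle. The groups overlapped, the change was 0.82 (SE 0.234, edgeR adjusted p = 0.00522), and it was no longer called without library 3 of ROSI (edgeR adjusted p = 0.0566).

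With TNF, SCO lowered 20 of the 34 genes, against 8.09% of all genes. The median change was -0.98, against 0.01 over all genes tested, and 33 of the 34 had a negative value, Ifi27l2a being the exception. In 24 genes all SCO libraries lay below all vehicle libraries, against 10.2% of all genes. The count depended on single libraries: it was 8 without library 4 of vehicle with TNF, 8 without library 2 of SCO with TNF and 10 without library 4 of SCO, and with the 2 libraries that stood furthest apart left out (library 4 of vehicle and library 2 of SCO) it was 2, with a median of -0.62, and CAP7 with TNF then had 2 as well. DESeq2 called 5, robust moderation 8, limma-voom 26, and a fit of only the groups compared and one with no filter 30 each. The share of all genes in those fits was not computed, so the 8.09% stands beside the 20 alone.

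All 4 Ifit genes fell with SCO. Ifit2 was at 24.9, 9.39, 19.1 and 15.1 CPM, against 26.2, 37.2, 40.7 and 59.9 CPM in vehicle. The groups did not overlap, and its change of -1.25 (SE 0.250, edgeR adjusted p = 0.000221) was called with every library left out and with each alternative setting. Ifit3 was at 164, 42.8, 123 and 81.6 CPM in SCO, against 210, 205, 272 and 424 CPM in vehicle (-1.43, SE 0.461). Ifit3b was at 93.8, 30.4, 49.5 and 45.2 CPM, against 112, 115, 137 and 207 CPM in vehicle (-1.38, SE 0.380), and Ifit1 at 141, 43.2, 98.4 and 85.7 CPM, against 178, 202, 251 and 319 CPM in vehicle (-1.36, SE 0.444). Library 1 of SCO was the highest and library 2 the lowest for all 4 genes.

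**Figure D4:**
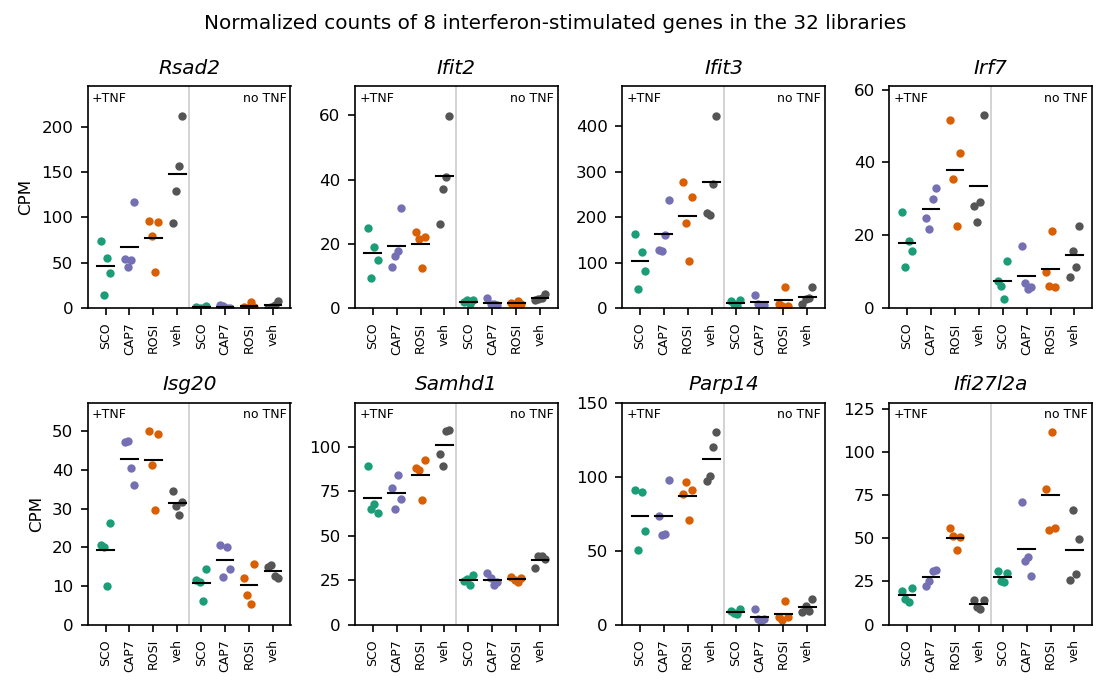
CPM (vertical axes, each from 0) of 8 interferon-stimulated genes in every library, by treatment (horizontal axes; veh, vehicle), with TNF left of the line and without TNF right of it, and the group mean as a black bar. The mean of SCO with TNF lies below that of vehicle with TNF in 7 of the 8 genes, and Ifi27l2a is higher in ROSI and CAP7 with TNF than in vehicle with TNF.

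Isg15, Usp18 and Herc6 fell too. Herc6 was at 62.9, 40.0, 55.6 and 51.9 CPM in SCO, against 90.0, 82.1, 89.7 and 124 CPM in vehicle, with no overlap and a change of -0.87 (SE 0.264, edgeR adjusted p = 0.0149). Isg15 changed by -1.29 (SE 0.453) and Usp18 by -1.18 (SE 0.374). Each of the 3 lost its call without library 4 of vehicle, and likewise without library 2 of SCO.

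All 4 enzymes of nucleotides and nucleic acids fell. Rsad2 was at 73.9, 14.9, 55.7 and 39.0 CPM in SCO, against 94.1, 129, 156 and 212 CPM in vehicle (-1.68, SE 0.418, edgeR adjusted p = 0.00318). Cmpk2 was at 14.1, 2.65, 9.41 and 8.52 CPM, against 20.4, 20.2, 24.8 and 35.2 CPM in vehicle (-1.53, SE 0.373). Neither gene had overlapping groups, and both were called with any 1 library left out, but not by DESeq2 or without library 4 of vehicle and library 2 of SCO together. Samhd1 was at 89.0, 65.1, 67.9 and 62.9 CPM, against 96.1, 89.0, 109 and 109 CPM in vehicle, a small and stable change of -0.50 (SE 0.0988, edgeR adjusted p = 0.000178). Library 1 of SCO reached the lowest vehicle library, and Samhd1 was called under every alternative. Isg20 was at 20.6, 20.1, 10.1 and 26.4 CPM, against 34.5, 30.7, 28.4 and 31.7 CPM in vehicle (-0.72, SE 0.223).

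Both Mx genes and Oasl2 fell, while the other 3 tested synthetases had negative values that did not pass the test. Mx1 was at 3.37, 0.539, 2.10 and 1.42 CPM in SCO, against 5.16, 6.06, 6.24 and 7.96 CPM in vehicle. Its libraries did not overlap, and the change was -1.75 (SE 0.485, edgeR adjusted p = 0.00763). Mx2 changed by -1.11 (SE 0.408, edgeR adjusted p = 0.0487) and Oasl2 by -1.26 (SE 0.415). Oas3, Oas2 and Oas1a had changes of -1.60 (SE 0.598), -1.21 (SE 0.488) and -1.01 (SE 0.649).

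Of the 3 transcription factors Stat2 fell. It was at 39.4, 24.3, 38.4 and 30.8 CPM in SCO, against 55.2, 49.8, 60.8 and 71.0 CPM in vehicle, with no overlap (-0.83, SE 0.225, edgeR adjusted p = 0.00606). Irf7 was at 26.3, 11.3, 18.5 and 15.8 CPM, against 28.1, 23.6, 29.2 and 52.9 CPM in vehicle, with overlapping groups and a change of -0.89 (SE 0.344, edgeR adjusted p = 0.062). Irf9 had a change of -0.42 (95% interval -0.94 to 0.09).

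Of the sensors Zbp1 (-0.90, SE 0.282) and Ifih1 (-0.74, SE 0.272) fell, and Dhx58 had a change of -1.06 (SE 0.414, edgeR adjusted p = 0.0665). Zbp1 was at 23.4, 11.9, 14.4 and 17.1 CPM in SCO, against 30.5, 25.9, 26.7 and 41.5 CPM in vehicle, without overlap. Ifih1 lost its call with any of the 8 libraries left out. Among the other effectors Xaf1 (-0.96, SE 0.335), Trim30a (-0.99, SE 0.330) and Sp100 (-0.96, SE 0.354) fell. Ifi35 (-0.23, 95% interval -0.56 to 0.10), Parp9 (-0.20, -0.51 to 0.10), Dtx3l (-0.35, -0.67 to -0.03) and Parp14 (-0.60, -1.13 to -0.08) did not pass the test. Ifi35, Parp9 and Dtx3l are also genes of small spread, and changes below -0.67 lie outside their intervals.

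CAP7 with TNF lowered 4 genes, against 14.2% of all genes, and raised 1, against 18%. The median was -0.51. The 4 became 7 without library 4 of CAP7, and 2 without library 3 or 4 of vehicle or library 1, 2 or 3 of CAP7. It was 12 with limma-voom, 21 in a fit of only the groups compared and 24 with no filter. The share of all genes lowered in those fits was not computed, so the 14.2% stands beside the 4 alone. Ifit2 was at 12.7, 16.2, 17.8 and 31.2 CPM in CAP7, against 26.2, 37.2, 40.7 and 59.9 CPM in vehicle (-1.07, SE 0.249, edgeR adjusted p = 0.000843). Samhd1 was at 76.6, 65.2, 84.1 and 70.8 CPM, against 96.1, 89.0, 109 and 109 CPM in vehicle (-0.44, SE 0.0987, edgeR adjusted p = 0.000497). Samhd1 did not overlap, while Ifit2 overlapped through library 4 of CAP7, and both were called under every alternative. Rsad2 was at 53.8, 45.0, 52.6 and 117 CPM in CAP7, against 94.1, 129, 156 and 212 CPM in vehicle (-1.13, SE 0.414), and Cmpk2 at 9.60, 10.7, 13.9 and 16.8 CPM, against 20.4, 20.2, 24.8 and 35.2 CPM in vehicle (-0.98, SE 0.367). Cmpk2 did not overlap and Rsad2 did through library 4 of CAP7, and neither was called by DESeq2.

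ROSI with TNF lowered 2 genes, against 16.3% of all genes, and raised 1 (2 without library 3 of ROSI), against 19.6%, with a median of -0.24. The 2 became 1 without library 3 of ROSI or library 3 or 4 of vehicle, 5 with library size alone, 7 with limma-voom, 9 in a fit of only the groups compared and 15 with no filter. Ifit2 was at 23.7, 21.5, 12.4 and 22.1 CPM in ROSI, against 26.2, 37.2, 40.7 and 59.9 CPM in vehicle, and fell without overlap (-1.06, SE 0.249, edgeR adjusted p = 0.00086). Samhd1 was at 87.9, 86.8, 70.0 and 92.3 CPM, against 96.1, 89.0, 109 and 109 CPM in vehicle (-0.26, SE 0.0986, edgeR adjusted p = 0.0354). Its groups overlapped, and the call was lost without library 3 of ROSI and without library 3 or 4 of vehicle. Ifit2 and Samhd1 thus fell with each of the 3 compounds, which share the vehicle libraries, whereas Isg15 had a change of -0.04 (95% interval -0.95 to 0.88) with ROSI.

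Ifi27l2a was the gene raised by CAP7 and by ROSI. It was at 22.6, 25.1, 30.9 and 31.8 CPM in CAP7 with TNF and 56.3, 51.6, 43.1 and 50.6 CPM in ROSI with TNF, against 14.2, 9.99, 9.22 and 14.5 CPM in vehicle with TNF. Neither group overlapped vehicle. The change was 1.21 (SE 0.251, edgeR adjusted p = 0.000214) with CAP7 and 2.07 (SE 0.247, edgeR adjusted p = 1.18e-08) with ROSI, and both were called under every alternative. In SCO with TNF it was at 19.7, 15.0, 13.4 and 21.0 CPM, overlapping vehicle (0.52, SE 0.256, edgeR adjusted p = 0.161).

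Between compounds, the number of genes that differed depended on the fit. With TNF, SCO was lower than ROSI for 6 genes, Ifit3b, Usp18, Isg20, Irf7, Zbp1 and Ifi27l2a, against 8.64% of all genes. The 6 became 2 without library 2 or 4 of SCO or library 1 or 4 of ROSI, and 3 without library 3 of SCO, but 13 with limma-voom, 17 in a fit of only the groups compared and 23 with no filter. Isg20 was at 20.6, 20.1, 10.1 and 26.4 CPM in SCO, against 50.0, 41.2, 29.6 and 49.3 CPM in ROSI and 47.2, 47.4, 40.6 and 36.1 CPM in CAP7. All SCO libraries lay below those of both other compounds, by -1.15 (SE 0.222, edgeR adjusted p = 0.000274) against ROSI and -1.17 (SE 0.221, edgeR adjusted p = 0.000732) against CAP7, and both calls held under every alternative. Isg20 was the 1 gene called between SCO and CAP7 (2 genes without library 1 of SCO or with limma-voom, 6 in a fit of only the groups compared and 21 with no filter), against 5.03% of all genes. Irf7 was at 26.3, 11.3, 18.5 and 15.8 CPM in SCO, against 51.8, 35.4, 22.5 and 42.6 CPM in ROSI, with overlap (-1.06, SE 0.345), and like Ifit3b, Usp18 and Zbp1 was not called by DESeq2.

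For most genes of the list, differences between compounds with TNF did not pass the test but were not narrow. Isg15 in SCO differed from ROSI by -1.26 (95% interval -2.17 to -0.34) and from CAP7 by -0.80 (-1.72 to 0.12), and Ifit1 by -1.14 (-2.04 to -0.24) and -0.72 (-1.62 to 0.19). Between CAP7 and ROSI with TNF Ifi27l2a was called lower in CAP7 (-0.86, SE 0.236), against 5.09% of all genes, and not without library 1 or library 2 of CAP7, while 11 were lower with no filter.

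Without TNF, Ifi27l2a was lower in SCO than in ROSI, at 31.3, 25.0, 24.8 and 30.0 CPM in SCO, against 78.4, 55.0, 112 and 56.0 CPM in ROSI. There was no overlap, the change was -1.44 (SE 0.239, edgeR adjusted p = 3.97e-05), and 7.33% of all genes were called lower. With no filter 15 genes of the list were lower in SCO. CAP7 differed from ROSI for Isg20 (0.71, SE 0.242) and Ifi27l2a (-0.79, SE 0.231), against 5.39% of all genes higher and 6.27% lower, and each call was lost with 5 of the 8 libraries left out in turn. Without library 1 of CAP7, 9 genes were lower in CAP7 than in ROSI, and 15 with no filter. Between SCO and CAP7 without TNF edgeR called 0 of the 34, against 6.04% of all genes, with 3 at an unadjusted p under 0.05 (1 higher and 2 lower) and 0 by DESeq2 and by limma-voom. Without library 1 of CAP7, 3 were higher in SCO, in a fit of only the groups compared 2 were lower, and with no filter 3 were higher and 6 lower.

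Transcripts of the interferons themselves were close to absent: of 21 ligand genes Ifnb1 had the most, 15 counts over all 32 libraries, 14 of them with TNF, and Ifng had 0. With so few counts no ligand gene was tested, and whether ligand transcripts changed cannot be told at this depth. Among receptors, kinases and STATs, Ifnlr1 had 0 counts and was not tested. Il10rb was near the floor, averaging 0.27 CPM in SCO with TNF and 0.36 CPM in SCO without it. Of the 10 tested, 9 rose with TNF in vehicle, against 26.7% of all genes, among them Jak2 by 2.15, Ifnar2 by 1.53 and Tyk2 by 1.17. With SCO and TNF 5 of the 10 fell, against 8.09% of all genes, among them Jak2 (-0.63), Tyk2 (-0.43) and Ifnar2 (-0.32).

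Of 27 tested genes linked to interferon gamma and antigen presentation 27 rose with TNF in vehicle, against 26.7% of all genes, and 14 fell with SCO and TNF, against 8.09%. Some of the 27 were at or near the floor in SCO without TNF, among them Gbp4 (0 CPM), Cxcl11 (0 CPM) and Gbp5 (0.0337 CPM). The filter on low counts favours a rise with TNF in such genes, so their part in the 27 adds no support. Irf1, a factor induced by both TNF and interferons, averaged 322 ± 31.0 CPM in SCO, 347 ± 15.3 CPM in CAP7 and 308 ± 36.1 CPM in ROSI, against 455 ± 34.1 CPM in vehicle with TNF (SD, n = 4). It fell with all 3 compounds, with changes of -0.50 (SE 0.0755) for SCO, -0.39 (SE 0.0754) for CAP7 and -0.56 (SE 0.0755) for ROSI. The chemokine Cxcl10 was at 180, 53.5, 92.2 and 90.0 CPM in SCO with TNF, against 237, 261, 379 and 450 CPM in vehicle with TNF, and fell by 1.67 (SE 0.278). As in the interferon-stimulated genes, library 1 was the highest and library 2 the lowest of the SCO group.

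Of 14 tested sensors and activators of interferon genes outside the list 11 rose and 1 fell with TNF in vehicle, against 26.7% and 27.5% of all genes, Ikbke by 3.28 and Sting1 by 2.54 among the rises. Among the 14, Irf5 averaged 0.0591 CPM in SCO without TNF, a level at which the filter on low counts favours a rise. Sting1, the adaptor of the DNA-sensing pathway, fell with each compound and TNF, with changes of -1.06 (SE 0.159) for SCO, -1.33 (SE 0.16) for CAP7 and -1.07 (SE 0.159) for ROSI. Of 10 negative regulators 8 rose and 1 fell with TNF in vehicle, against 26.7% and 27.5% of all genes. Socs3, the feedback inhibitor of JAK kinases, rose by 1.63. With SCO and TNF 3 of the 10 fell, against 8.09% of all genes. All 16 genes of the NF-κB and TNF response rose with TNF in vehicle, against 26.7% of all genes. Traf1 (0 CPM), Icam1 (0.0762 CPM) and Ccl5 (0.086 CPM) were at or near the floor in SCO without TNF. The filter favours a rise with TNF in such genes too, so their part in the 16 adds no support. In cells with TNF 10 of the 16 fell with SCO, against 8.09% of all genes, 11 with CAP7, against 14.2%, and 12 with ROSI, against 16.3%.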

How the data were processed

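Expression in 32 libraries of 3T3-L1 adipocytes was measured by 3' mRNA sequencing, per the labels' protocols. The authors deposited raw counts for each Ensembl gene in each library, without normalization. The submitters' processing notes name HTSeq 2.0.5, STAR 2.7.11b, cutadapt 4.9, limma 3.60.6, R 4.4.1 and the build GRCm39, without their settings. The sources used here do not give strand or multi-mapping rules.

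Of 57186 genes, 28862 had a count and 14428 passed edgeR's filter by group. The fit used edgeR 4.0.16 under R 4.3.3 (TMM, quasi-likelihood F test, 8 group means, 24 residual degrees of freedom), and p-values were adjusted over all 14428 genes in each of 19 comparisons. SEs and intervals of 95% come from that fit. The fit was tested on simulated counts, drawn for each gene separately. They lack the spread shared between genes, so that test does not cover calls that hinge on single libraries. The 35 genes and the other lists were chosen with earlier results of these data known. Values of every library are printed for 20 genes by rule: the 10 largest and 4 smallest changes with TNF in vehicle, the 6 lowest p for each compound with TNF, and genes called for a compound without TNF. Other genes of the list are given by change, and receptors, STATs and the lowest p of the other lists may be named. Promoters came from RefSeq tables on GRCm38.p6, another build than the counts.

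Alternatives were RLE factors, library size alone, no filter on low counts, 5 CPM in 4 libraries, DESeq2 1.42.0, limma-voom 3.58.1, robust moderation, a replicate block, only the groups compared and leaving out each library. Leaving out pairs of libraries that stood apart was chosen after seeing the data. Replicate numbers were not taken to pair the libraries, since they are not said to mark a shared day or batch. Of 112 same-number correlations of deviations (-0.11 to 0.16) 3 were over 0.1. Yet 16 of the 32 libraries correlated best with those of their own number, as taken up at the end. No pair of replicates agreed within sampling noise (chi-square per degree of freedom 6.16 to 43.9).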

Additional observations from a re-analysis of the deposited data

Results flagged for a closer look

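Within groups of 4 libraries, 21 of 168 gap tests, on the 20 genes printed by library and on the mean level of the 34 tested genes in each of the 8 groups, marked a library far from the other 3 (Dixon's ratio of gap to range above its 95% critical value). A rate of 5% would give about 8.4. That rate assumes normally distributed values, while the CPM were not transformed, so the 21 cannot be weighed against it. For Oas3 in vehicle and in SCO without TNF the other libraries were at 0, which fixes the ratio. The 168 tests are not independent, since the genes move together. Library 1 of CAP7 without TNF was the highest of its group for Zbp1 (2.317 CPM), Mx1 (0.9269 CPM), Ifit2 (3.105 CPM), Herc6 (14.37 CPM), Irf9 (43.24 CPM), Irf7 (17.1 CPM), Ifit3b (24.15 CPM) and Ifih1 (5.423 CPM). Library 3 of ROSI without TNF was the highest for Rsad2 (7.27 CPM), Ifit3 (46.19 CPM), Xaf1 (4.701 CPM) and Ifih1 (7.707 CPM).

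Library 4 of CAP7 with TNF was the highest for Rsad2 (117.3 CPM) and Stat2 (54.7 CPM), and library 2 of the same group the lowest for Zbp1 (19.98 CPM). In ROSI with TNF, library 3 was the lowest for Herc6 (47.95 CPM) and library 4 the highest for Mx1 (4.554 CPM). Cmpk2 stood apart in library 4 of SCO without TNF (1.396 CPM). Oas3 stood apart in library 1 of ROSI (0.3374 CPM), library 2 of SCO (0.1493 CPM) and library 1 of vehicle (0.1301 CPM), all without TNF, from a handful of counts each.

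The change of Ifi27l2a with TNF differed from vehicle in CAP7 (interaction 1.17, edgeR adjusted p = 0.0158, n = 4 libraries per group) and in ROSI (1.25, edgeR adjusted p = 0.00913). The fall with TNF was smaller in both, with intervals of 0.47 to 1.87 and 0.56 to 1.94 for the interaction. Both calls were lost without library 2 of vehicle without TNF, and that for CAP7 also with robust moderation. For SCO the interaction was of like size (1.13) but did not pass the test, so these values do not set SCO apart.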

How the results depend on the processing

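Counts below are of interferon-stimulated genes called among the 34 tested. No gene called in the fit described above changed direction within its comparison under any alternative. Other genes were called in the opposite direction under some alternatives, as the counts show. The rises with TNF held: with single libraries left out the number higher was 32 to 33 in vehicle and in SCO, and the number lower 0 to 1 in each of SCO, CAP7 and ROSI. Ifi27l2a, the 1 gene lower with TNF, was not called in SCO, CAP7 and ROSI with robust moderation (0 each), and in ROSI with DESeq2 (0).

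For SCO with TNF, where 20 were lower, leaving out single libraries gave 8 to 22, DESeq2 5 and robust moderation 8. With library 4 of vehicle and library 2 of SCO left out together it was 2, and TNF in SCO then had 0 lower, CAP7 with TNF 2 lower, ROSI with TNF 1 lower and SCO against ROSI with TNF 2 lower. Fitting only the groups compared gave 1 higher for SCO with TNF, 2 higher and 21 lower for CAP7 with TNF and 2 higher and 9 lower for ROSI with TNF. With no filter on low counts these were 1 higher for SCO, 2 higher and 24 lower for CAP7 and 2 higher and 15 lower for ROSI. For CAP7 with TNF (4 lower), DESeq2 and robust moderation gave 2, library size alone 7, limma-voom 12 and single libraries 2 to 7. For ROSI with TNF (1 higher, 2 lower), library size alone gave 5 lower, limma-voom 7, and single libraries 1 to 2 higher and 1 to 2 lower.

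Without TNF, the number lower with SCO (1) was 4 with library size alone, 24 with no filter, 2 with 5 CPM in 4 libraries, 3 with DESeq2, 16 with only the groups compared and 1 to 7 with single libraries left out. For CAP7 (4 lower) it was 8 with library size alone, 25 with no filter, 2 with robust moderation, 8 with only the groups compared, 2 to 25 with single libraries left out, and 25 with library 1 of CAP7 and library 3 of ROSI left out together. For ROSI (1 higher, 3 lower) the number lower was 5 with library size alone, 13 with no filter, 1 with limma-voom and with robust moderation, 18 with that pair of libraries left out, and 1 to 13 with single libraries, where the number higher was 0 to 1. With that pair left out TNF in CAP7 and in ROSI had 0 lower.

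Between compounds without TNF, SCO against ROSI gave 1 higher with that pair left out, 15 lower with no filter and 1 to 2 lower with single libraries. SCO against CAP7 gave 3 higher and 6 lower with no filter, 2 lower with only the groups compared, 5 higher with that pair left out, and 0 to 3 higher and 0 to 1 lower with single libraries. CAP7 against ROSI gave 0 higher with RLE factors, DESeq2, limma-voom, robust moderation, only the groups compared and that pair left out, 0 lower with robust moderation, 15 lower with no filter, and 0 to 1 higher and 0 to 9 lower with single libraries. With TNF, SCO against ROSI gave 23 lower with no filter, 2 with DESeq2 and robust moderation, 13 with limma-voom, 17 with only the groups compared and 2 to 8 with single libraries. SCO against CAP7 gave 21 lower with no filter, 2 with limma-voom, 6 with only the groups compared and 1 to 2 with single libraries. CAP7 against ROSI gave 11 lower with no filter, 0 with robust moderation and 0 to 1 with single libraries.

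The interaction with SCO gave 1 higher and 1 lower with no filter, 1 higher with only the groups compared and 0 to 1 higher with single libraries. That with CAP7 gave 6 higher with no filter, 0 with robust moderation, 7 with that pair left out and 0 to 2 with single libraries. That with ROSI gave 5 higher and 2 lower with no filter, 2 higher with only the groups compared, 5 with that pair left out and 0 to 3 with single libraries. The causes of these changes were not tested.

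With the replicate number as a block, which was not taken to pair the libraries, 2 genes were lower with SCO without TNF, 2 higher in the interaction with ROSI and 21 lower with SCO and TNF. Of 32 libraries, 16 correlated best with those of their own number, where about 8 would if the numbers meant nothing, a hint from the data and not from the design. The median coefficient of variation of 40.5% leaves intervals wide, and genes such as Oas3, with 3 counts in vehicle without TNF, rest on few reads.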
